A study of Mus musculus with 227 samples.

Results

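The 38 cell division genes described here are 10 genes of DNA replication and nucleotide supply and 28 genes of mitosis. They were chosen by name: a gene was taken when the symbol in the deposited count table equalled one of the 38 names, and all 38 were found among 31689 genes. They were followed across RNA-seq libraries of primary mouse cerebrocortical cultures. Of these libraries, 218 came from cultures that received 1 drug each and 9 from cultures that received vehicle, 0.2% DMSO. All cultures, drug and vehicle alike, were made from cortices of embryonic day 16.5 F1 progeny of FVB/N and C3B6F1 parents, kept in Neurobasal medium with B27 to day 21 in vitro, and exposed for 8 h. Drug doses are not given in the sources used here, and each drug has 1 library, so no drug value has a replicate check. Nothing in the labels says that the 9 vehicles came from separate cultures, so p-values measure the spread between these libraries. The labels give 9 sequencing run codes, and 3 of them hold no vehicle.

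Cell division proceeds from DNA synthesis to chromosome segregation, and most genes for these steps are transcribed in waves. Replication genes are driven largely by E2F factors near the entry to S phase. Mitosis genes are driven later by FOXM1 and B-MYB together with the MuvB complex, which reads a short promoter element called CHR, often near CCAAT boxes bound by NF-Y. Neurons have left the cell cycle, and the dividing cells of cortical cultures are mainly glia and progenitors. In a bulk library, fewer dividing cells and less RNA per dividing cell cannot be told apart.

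The replication set holds Mcm2, Mcm3, Mcm4, Mcm5, Mcm6 and Mcm7, the subunits of the replicative helicase, and Pcna, the sliding clamp of the DNA polymerases. It also holds Rrm1 and Rrm2, the large and small subunits of ribonucleotide reductase, and Tyms, thymidylate synthase. The mitosis set holds Cdk1 with its cyclins Ccnb1 and Ccna2, the kinases Aurka, Aurkb, Plk1, Bub1 and Melk, and the checkpoint protein Bub1b. Casc5 (named Knl1 in GENCODE vM21), Ndc80, Nuf2 and Cenpf act at the kinetochore, and Birc5 works with Aurkb in the chromosomal passenger complex. Kif11, Tpx2 and Nusap1 organise the spindle, Top2a and Ncapg shape chromosomes, and Cdc20 and Ube2c work with the anaphase-promoting complex. Prc1, Kif4, Kif20a, Kif23, Ect2 and Anln act at the central spindle and in cytokinesis, and Mki67 encodes the proliferation antigen Ki-67.

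Promoter sequences were looked up because members that moved together in these libraries could share promoter letters. The RefSeq table (GRCm38.p6) holds 300 bases per gene, 250 before the start and 50 after it, and 33 of the 38 members were found in it, 32 by symbol and 1 by gene ID. Mcm4, Aurkb, Kif20a, Ccna2 and Tpx2 were not matched. Both strands were searched for CCAAT, for the CHR letters TTTGAA and TTTAAA, and for the E2F letters TTTCCCGC and TTTGGCGC. CCAAT was in 17 of 24 mitosis promoters and 8 of 9 replication promoters, against 37.9% of all 27025 promoters. TTTGAA or TTTAAA was in 20 of 24 mitosis promoters (83.3%) and 3 of 9 replication promoters (33.3%), against 27.8% of all promoters. An E2F run of letters was in 1 of 24 mitosis promoters and 4 of 9 replication promoters (44.4%), against 1.63% of all promoters. CCAAT with a CHR run in the same window was in 16 of 24 mitosis promoters, against 10.9% of all. These matches describe letters and do not show that a factor binds there.

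Promoters from both sets are shown as examples, 5′ to 3′ on the strand of the gene, with matches on either strand in capitals. They do not stand for their sets: Mcm3 and Mcm5 are among the 4 of 9 replication promoters that hold an E2F run. Cdk1 (chr10:69352863-69353162, minus strand), Ccnb1 (chr13:100786437-100786736, minus strand) and Top2a (chr11:99024140-99024439, minus strand) belong to the mitosis set. Rrm2 (chr12:24708004-24708303, plus strand), Mcm3 (chr1:20820263-20820562, minus strand) and Mcm5 (chr8:75109259-75109558, plus strand) belong to the replication set.
Cdk1: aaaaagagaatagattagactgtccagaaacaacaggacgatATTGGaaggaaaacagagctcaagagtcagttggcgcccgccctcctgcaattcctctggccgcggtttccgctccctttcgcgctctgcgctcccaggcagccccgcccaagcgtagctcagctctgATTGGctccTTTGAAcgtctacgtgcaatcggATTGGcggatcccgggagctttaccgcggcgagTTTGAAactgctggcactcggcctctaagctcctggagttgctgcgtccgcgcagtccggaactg
Ccnb1: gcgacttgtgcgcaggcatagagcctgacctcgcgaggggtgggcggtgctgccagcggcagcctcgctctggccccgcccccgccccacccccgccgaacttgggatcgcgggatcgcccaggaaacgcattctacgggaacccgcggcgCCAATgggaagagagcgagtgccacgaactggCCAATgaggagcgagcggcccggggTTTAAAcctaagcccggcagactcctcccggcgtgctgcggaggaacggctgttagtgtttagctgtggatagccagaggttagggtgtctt
Top2a: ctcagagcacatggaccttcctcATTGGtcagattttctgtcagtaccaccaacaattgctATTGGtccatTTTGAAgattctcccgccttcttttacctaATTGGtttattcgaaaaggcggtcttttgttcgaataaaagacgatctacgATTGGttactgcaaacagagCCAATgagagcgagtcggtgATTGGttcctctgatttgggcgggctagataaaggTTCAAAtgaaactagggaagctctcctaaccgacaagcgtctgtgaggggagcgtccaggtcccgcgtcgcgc
Rrm2: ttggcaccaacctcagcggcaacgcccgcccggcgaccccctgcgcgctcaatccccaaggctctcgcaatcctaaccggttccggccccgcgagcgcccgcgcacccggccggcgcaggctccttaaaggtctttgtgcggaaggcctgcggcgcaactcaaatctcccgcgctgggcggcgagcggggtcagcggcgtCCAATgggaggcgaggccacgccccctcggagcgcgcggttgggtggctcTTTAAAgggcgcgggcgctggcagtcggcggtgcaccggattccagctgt
Mcm3: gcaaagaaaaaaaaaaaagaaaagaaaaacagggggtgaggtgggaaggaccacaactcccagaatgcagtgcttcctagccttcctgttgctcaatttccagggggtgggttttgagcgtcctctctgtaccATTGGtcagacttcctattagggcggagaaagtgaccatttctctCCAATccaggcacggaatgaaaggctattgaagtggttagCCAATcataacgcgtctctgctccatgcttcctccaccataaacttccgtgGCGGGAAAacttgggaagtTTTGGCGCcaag
Mcm5: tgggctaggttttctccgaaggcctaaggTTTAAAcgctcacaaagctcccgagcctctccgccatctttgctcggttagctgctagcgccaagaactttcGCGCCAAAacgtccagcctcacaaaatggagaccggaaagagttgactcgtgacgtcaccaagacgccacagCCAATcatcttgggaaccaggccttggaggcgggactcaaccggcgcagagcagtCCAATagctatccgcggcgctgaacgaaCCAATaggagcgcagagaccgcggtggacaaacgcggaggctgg

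Division genes were transcribed at low but countable levels in the untreated state. Deposited RPKM, reads scaled to gene length and to library size, allows levels to be compared between genes. In the 9 vehicles, Pcna was the most abundant member per length, at 13.3 ± 1.216 RPKM (SD, n = 9), and Rrm1 followed at 9.4998 ± 0.974 RPKM. Top2a was the most abundant mitosis gene, at 7.35 ± 0.804 RPKM, followed by Prc1 at 3.92 ± 0.709, Ccna2 at 3.69 ± 0.284, Tpx2 at 3.29 ± 0.447 and Mki67 at 3.197 ± 0.439 RPKM. The helicase genes lay between 2.73 ± 0.290 RPKM for Mcm5 and 6.196 ± 0.446 RPKM for Mcm4. The lowest members were Tyms at 0.854 ± 0.246, Ccnb1 at 0.853 ± 0.179 and Casc5 at 0.612 ± 0.0711 RPKM. Pcna, Rrm1 and Top2a stood apart from each other by more than their SDs, whereas Prc1, Ccna2, Tpx2 and Mki67 lay within overlapping SDs of their neighbours, as did Tyms and Ccnb1.

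**Figure D1:**
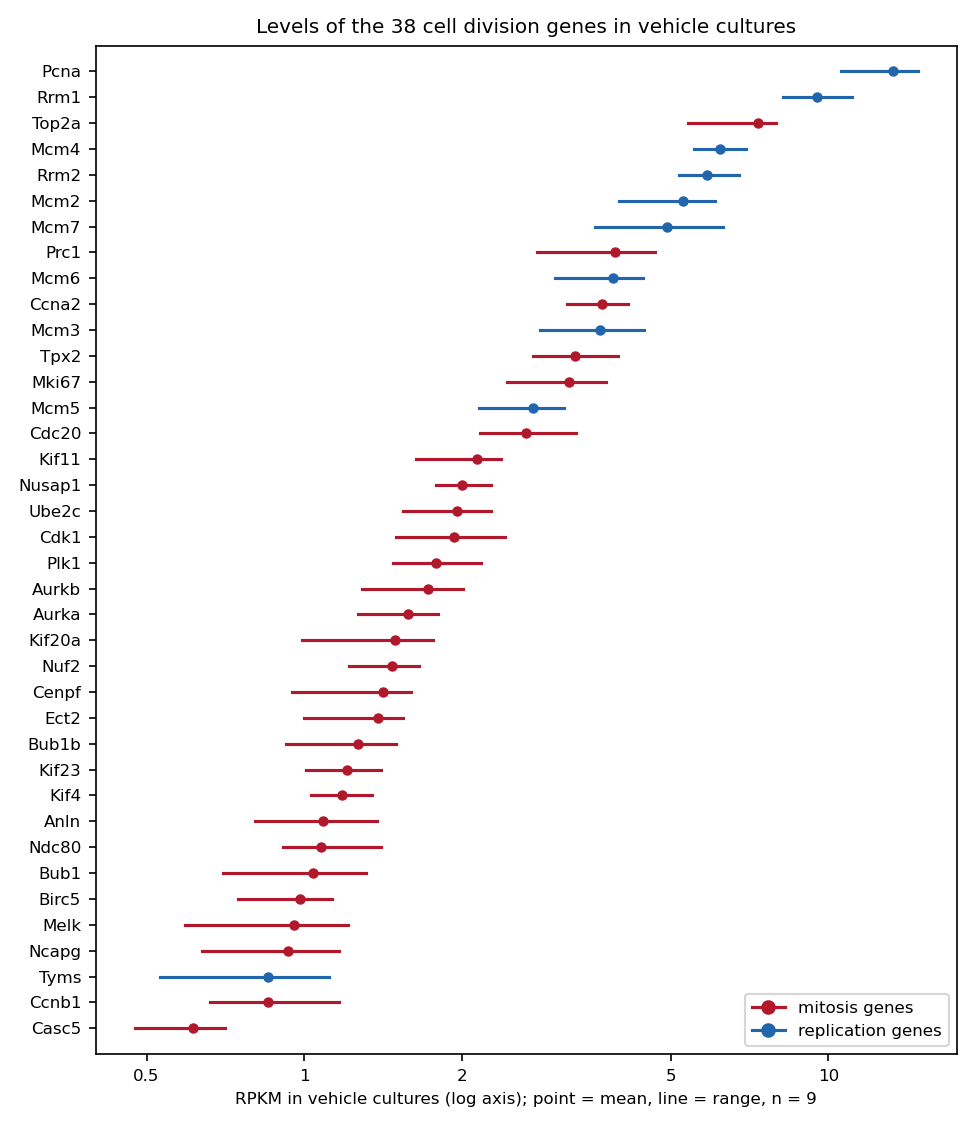
Level of each of the 38 genes in the 9 vehicle libraries, in RPKM on a log axis, with a point for the mean and a line from the lowest to the highest library, mitosis genes in red and replication genes in blue. Means run from 0.612 RPKM for Casc5 to 13.3 RPKM for Pcna, and the replication genes other than Tyms lie in the upper part of the range.

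Vehicles differed among themselves by a coefficient of variation of 6.65% for Nusap1 to 28.8% for Tyms. The lowest count of a member was 59 in a vehicle and 16 in any library, so each value rests on at least that many reads. Libraries held 22.02 M to 65.19 M counts, with a median of 34.99 M, and vehicles 31.4 M to 43.77 M. In CPM, counts scaled to the library total, the 28 mitosis genes together took 178 to 250.3 CPM in the vehicles (median 237) and the 10 replication genes 137 to 186 CPM (median 169.6). Vehicle 3 was the lowest vehicle for 20 of the 28 mitosis genes and Vehicle 7 for 7 of the 10 replication genes. Markers of the cultures' cell types were checked alongside. Neuron markers summed to 4517 to 6125 CPM in vehicles, astrocyte markers to 5653 to 7856 CPM and oligodendrocyte precursor markers to 479 to 627 CPM. Microglia markers summed to 3.468 to 19.0 CPM and endothelial markers to 2.32 to 5.27 CPM, with the endothelial gene Cldn5 at 0 in every vehicle.

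Each drug library was then compared with the 9 vehicles by edgeR's quasi-likelihood test over all genes, and a gene was called at a Benjamini-Hochberg adjusted p under 0.05. All comparisons share the same 9 vehicles, so their results are not independent of each other. Members were called in 3 of the 218 drugs: Mitoxantrone·HCl, Nilotinib and Fenofibrate. With Fenofibrate, 3 of the 38 members were called higher, beside 5.82% of all genes. That count does not set the 38 members apart from other genes. Of 8284 tests of members, 30 were called (0.362%), 27 lower and 3 higher, while 0.12% of all 3359570 gene tests were called. With the remaining 215 drugs, 0 members were called by edgeR. Only 17 of the 218 drugs had any gene called, so that 0 says little about division genes in particular. For most of the drugs with 0 members that are described further on, unadjusted results stand beside that 0.

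**Figure D2:**
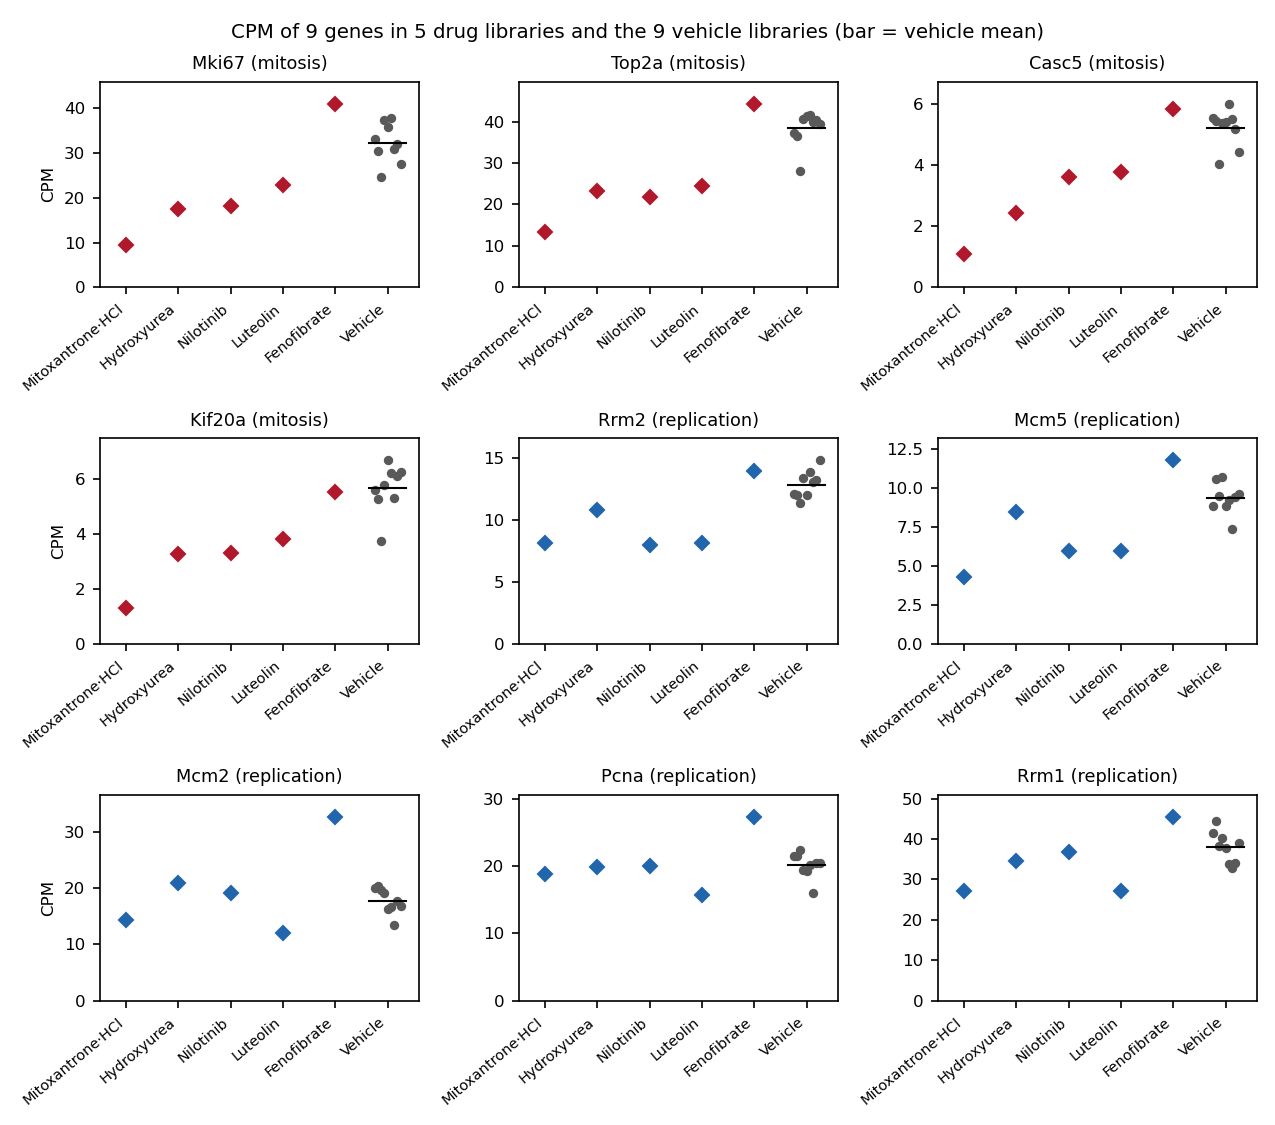
CPM of 9 members (linear axes from 0) in 5 drug libraries, diamonds, left of the 9 vehicles, circles with a bar at their mean; mitosis genes are red and replication genes blue. Mki67 lay at 9.37 CPM with Mitoxantrone·HCl, under the vehicle range of 24.6 to 37.9 CPM, while Mcm2 lay at 32.7 CPM with Fenofibrate, above the vehicle range of 13.5 to 20.4 CPM.

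Mitoxantrone·HCl is an antineoplastic anthracenedione that intercalates into DNA and poisons type II topoisomerases, the enzyme family of Top2a. With it, 14 members fell and 0 rose: 13 mitosis genes (Casc5, Ccna2, Nusap1, Mki67, Kif11, Top2a, Kif23, Kif20a, Ube2c, Cenpf, Ect2, Ndc80 and Nuf2) and 1 replication gene, Mcm5. Over all genes, 0.233% were called lower in this comparison. The median log2 fold change was -1.34 for the 28 mitosis genes and -0.54 for the 10 replication genes, against -0.01 for all genes tested. All 28 mitosis genes and 8 of the 10 replication genes lay below every vehicle. The levels of 27 mitosis genes and Mcm5 were lower with this drug than with any of the other 217. For this and later drugs, the share of all genes outside the vehicle range is not given, so such counts have no all-gene background. Over all drugs, the median count below every vehicle was 1 for mitosis genes and 0 for replication genes. The median count above every vehicle was 0 for mitosis genes and 1 for replication genes.

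Casc5, the kinetochore scaffold that recruits Bub1 and Bub1b, had 1.09 CPM with Mitoxantrone·HCl, against 4.06, 5.438 and 6.03 CPM as the lowest, median and highest vehicle. Its log2 fold change was -2.30 ± 0.253 (SE), with an adjusted p of 0.00475 (edgeR). Casc5 is on chromosome 2, plus strand, in the GENCODE vM21 annotation (mm10 coordinates, 119047119 to 119105501). Kif20a, a kinesin of the central spindle, had 1.31 CPM with the drug, against 3.751, 5.789 and 6.67 CPM in vehicles, a log2 fold change of -2.14 ± 0.313 (adjusted p = 0.02, edgeR). Both genes were far below their lowest vehicle, and the drug library did not overlap the vehicles.

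Mki67 had 9.37 CPM with Mitoxantrone·HCl, against 24.6, 32.1 and 37.9 CPM in vehicles, and a log2 fold change of -1.82 ± 0.242 (adjusted p = 0.0132, edgeR). Top2a, which untangles sister chromatids, had 13.5 CPM with the drug, against 28.2, 39.9 and 41.5 CPM in vehicles, and a log2 fold change of -1.55 ± 0.216 (adjusted p = 0.0149, edgeR). Neither gene overlapped the vehicles. Ccna2, the cyclin of S phase and G2, had 4.59 CPM with the drug, against 11.5, 13.4 and 15.1 CPM in vehicles (log2 fold change -1.59 ± 0.174, adjusted p = 0.00475, edgeR). Kif11, the motor that separates the spindle poles, had 4.03 CPM with the drug, against 7.88, 10.8 and 11.5 CPM in vehicles, with a log2 fold change of -1.39.

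Among other kinetochore genes Cenpf, Ndc80 and Nuf2 fell as well. Cenpf had 4.67 CPM with Mitoxantrone·HCl, against 10.5, 16.4 and 17.8 CPM in vehicles, with a log2 fold change of -1.79. Ndc80 had 0.755 CPM with the drug, against 2.00, 2.30 and 3.09 CPM in vehicles, and its partner Nuf2 had 1.59 CPM with the drug, against 3.37, 4.09 and 4.5798 CPM. Their log2 fold changes were -1.68 and -1.39, both with an adjusted p of 0.0301 (edgeR). Among genes of exit from mitosis, Ube2c had 1.43 CPM with the drug, against 4.01, 5.25 and 5.89 CPM in vehicles. Kif23 had 1.37 CPM with the drug, against 3.44, 3.96 and 4.80 CPM, and Ect2 had 2.01 CPM with the drug, against 4.111, 5.82 and 6.35 CPM. The microtubule protein Nusap1 had 3.41 CPM with the drug, against 7.22, 8.03 and 9.19 CPM. None of these overlapped the vehicles.

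The kinase core of mitotic entry lay low without passing the threshold. Ccnb1 had 0.448 CPM with Mitoxantrone·HCl, which is 16 reads, against 1.65, 1.91 and 2.90 CPM in vehicles. Its log2 fold change of -2.28 ± 0.431 was the second largest among the members, with an adjusted p of 0.0622 (edgeR). Bub1b had a log2 fold change of -1.48 (adjusted p = 0.0622, edgeR), Aurkb of -1.14 (adjusted p = 0.0769, edgeR) and Cdk1 of -1.16 (adjusted p = 0.138, edgeR). The remaining mitosis genes had log2 fold changes between -1.22 for Bub1 and -0.88 for Tpx2.

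The replication genes were less displaced. Mcm5 had 4.31 CPM with Mitoxantrone·HCl, against 7.38, 9.41 and 10.7 CPM in vehicles, and a log2 fold change of -1.15 ± 0.171 (adjusted p = 0.0201, edgeR). The 9 replication genes that were not called ranged in log2 fold change from -0.87 for Tyms to -0.14 for Pcna, whose adjusted p was 0.666 (edgeR). Rrm2 had a log2 fold change of -0.71 (adjusted p = 0.138, edgeR) and Rrm1 of -0.52 (adjusted p = 0.153, edgeR). The summed level of mitosis genes was 87.7 CPM with the drug, against 178 to 250.3 CPM in vehicles, and that of replication genes was 124 CPM with the drug, against 137 to 186 CPM.

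**Figure D3:**
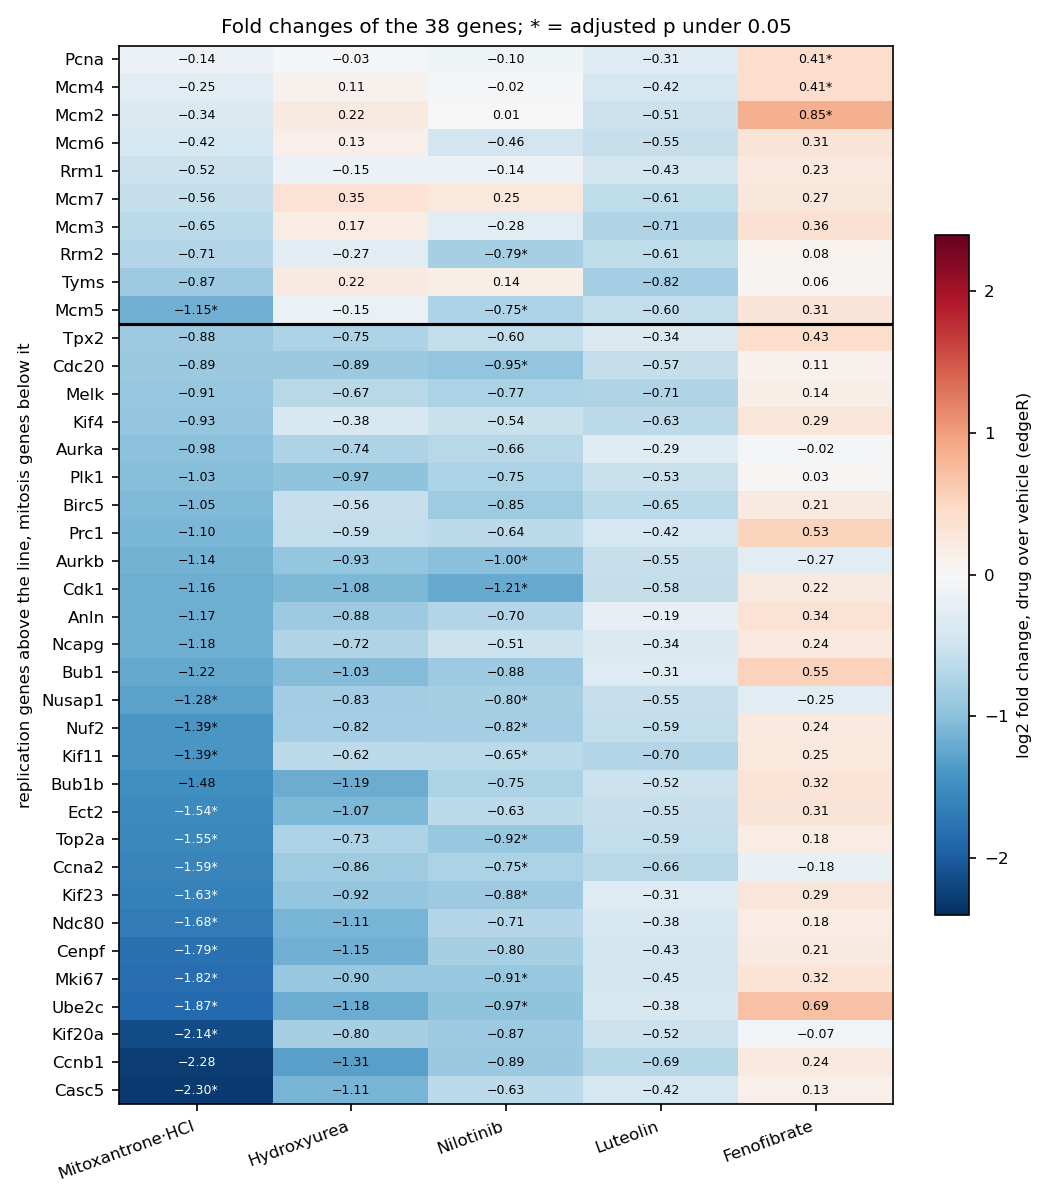
Log2 fold change against the 9 vehicles (edgeR) of each member in 5 drugs, as colour and number, with replication genes above the line, mitosis genes under it and an asterisk at called genes. With Mitoxantrone·HCl all 28 mitosis genes lie between -2.30 and -0.88, while with Hydroxyurea they lie between -1.31 and -0.38 beside replication genes around 0.

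Other cell cycle genes, from lists chosen for comparison, were counted in the same fit. Of 25 other mitosis genes, 3 fell with Mitoxantrone·HCl: Aspm, a spindle pole protein (log2 fold change -1.76), Ttk, a spindle checkpoint kinase (-1.08), and Smc2, a condensin subunit (-0.74). Of 25 other replication genes, 1 fell, the helicase loader Cdc6 (-1.75). Foxm1, the transcription factor of mitosis genes, fell (log2 fold change -1.34, adjusted p = 0.0132, edgeR) as 1 of 6 listed genes of FOXM1 and MuvB. E2f8, a repressor of E2F targets, fell by 1.67 as 1 of 13 genes of the G1 list. Of 10 cell cycle inhibitors, 0 were called, and Cdkn1a, which encodes p21, had a log2 fold change of 1.74 with an adjusted p of 0.0801 (edgeR).

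Levels of cell type markers differed too with Mitoxantrone·HCl, although 0 of the 6 oligodendrocyte precursor markers were called. These markers summed to 325 CPM with the drug, against 479 to 627 CPM in vehicles, and neural progenitor markers to 401 CPM with the drug, against 435 to 745 CPM. Astrocyte markers summed to 5519 CPM with the drug, against 5653 to 7856 CPM in vehicles, and neuron markers to 5350 CPM, within the vehicle range. Their part in the result was not tested. The library belongs to a run code of 8 libraries that holds no vehicle, so against vehicles the run cannot be told apart from the drug. After the mean of each run code was subtracted, its replication genes had a median log2 CPM of -0.29, within the vehicles at -0.33 to 0.16. Its mitosis genes had a median of -0.98, below the vehicles at -0.13 to 0.20. Against the other libraries of its own run code, 21 members fell with the drug, all of them mitosis genes, with 0.506% of all genes called lower. With limma and a term for run code 27 members fell (1.1856% of all genes), and with DESeq2 30 fell (1.41% of all genes). Leaving out single vehicles gave 9 to 17 calls, with 9 without Vehicle 4 or Vehicle 5.

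Hydroxyurea inhibits ribonucleotide reductase, the product of Rrm1 and Rrm2, and so depletes the deoxynucleotides needed for replication. With it the mitosis genes lay low and the replication genes did not. In edgeR 0 members were called, and 0% of all genes were called lower. At an unadjusted p under 0.05, 24 of 28 mitosis genes and 0 of 10 replication genes passed, beside 640 of 15405 genes. The median log2 fold change was -0.88 for mitosis genes and 0.12 for replication genes. Of the mitosis genes, 27 lay below every vehicle. Of the replication genes, 1 lay below every vehicle and 2 above.

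Ccnb1 had the largest log2 fold change of the members with Hydroxyurea, -1.31 ± 0.386, at 0.864 CPM, against 1.65, 1.91 and 2.90 CPM in vehicles. Bub1b followed at -1.19 ± 0.272 and Ube2c at -1.18 ± 0.266, each with an adjusted p of 0.756 (edgeR). Cdk1 had 2.741 CPM with the drug, against 4.44, 5.42 and 7.20 CPM in vehicles. The single library lay under the vehicle range for each of these genes. Cdc20, the activator of the anaphase-promoting complex, had 2.59 CPM with Hydroxyurea, the lowest of the 218 drugs, against 3.89, 4.50 and 5.91 CPM in vehicles.

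Rrm1 and Rrm2 encode the enzyme that the drug targets, and only their RNA was measured here. Rrm1 had 34.6 CPM with Hydroxyurea, against 32.7, 38.3 and 44.4 CPM in vehicles, within their range. Rrm2 had 10.8 CPM with the drug, against 11.4, 13.0 and 14.8 CPM in vehicles, just below the lowest of them, with a log2 fold change of -0.27 and an unadjusted p of 0.124. Pcna had 19.96 CPM with the drug, against 16.1, 20.4 and 22.5 CPM in vehicles, and Mcm2 had 20.9 CPM with the drug, against 13.5, 17.6 and 20.4 CPM.

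Calls for Hydroxyurea depended on the tool. DESeq2 called 7 members lower (0.108% of all genes), and limma with a term for run code called 19, all mitosis genes (0.318% of all genes). Against the other libraries of its run code, 32 libraries with 2 vehicles among them, edgeR called 2 members lower, Nusap1 and Cenpf, both with an adjusted p of 0.0247, and 0.0322% of all genes. Oligodendrocyte precursor markers summed to 539 CPM with Hydroxyurea, within the vehicle range, and neural progenitor markers to 805 CPM with the drug, against 435 to 745 CPM in vehicles. Their part in the result was not tested.

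Nilotinib inhibits BCR-ABL and also acts on KIT, PDGF receptors and DDR kinases. With it 13 members fell and 0 rose. Of mitosis genes 11 fell: Nusap1, Ccna2, Top2a, Aurkb, Cdk1, Kif23, Mki67, Cdc20, Nuf2, Kif11 and Ube2c. Of replication genes 2 fell, Rrm2 and Mcm5. Over all genes, 6.02% were called lower in this comparison. The median log2 fold change was -0.78 for mitosis genes and -0.12 for replication genes, and 26 of 28 mitosis genes but 2 of 10 replication genes lay below every vehicle.

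Cdk1, the kinase of mitotic entry, had the largest log2 fold change with Nilotinib, -1.21 ± 0.273 (adjusted p = 0.0206, edgeR), at 2.65 CPM, against 4.44, 5.42 and 7.20 CPM in vehicles. Aurkb, the kinase of the chromosomal passenger complex, had 1.80 CPM with the drug, against 2.52, 3.34 and 3.932 CPM in vehicles (log2 fold change -1.001 ± 0.222, adjusted p = 0.0197, edgeR). Mki67 had 18.3 CPM with the drug, against 24.6, 32.1 and 37.9 CPM in vehicles (log2 fold change -0.91 ± 0.221, adjusted p = 0.0268, edgeR). The drug library lay below all vehicles for these genes, at levels above those with Mitoxantrone·HCl for Mki67 and Aurkb and about equal for Cdk1. Top2a had 21.8 CPM with Nilotinib, against 28.2, 39.9 and 41.5 CPM in vehicles, and Cdc20 had 2.62 CPM with the drug, against 3.89, 4.50 and 5.91 CPM. The remaining called mitosis genes had log2 fold changes from -0.97 for Ube2c to -0.65 for Kif11.

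Rrm2, the small subunit of ribonucleotide reductase, had 7.94 CPM with Nilotinib, the lowest of the 218 drugs, against 11.4, 13.0 and 14.8 CPM in vehicles. Its log2 fold change was -0.79 ± 0.166 (adjusted p = 0.0157, edgeR). Mcm5 had 5.94 CPM with the drug, against 7.38, 9.41 and 10.7 CPM in vehicles, and a log2 fold change of -0.75 ± 0.162 (adjusted p = 0.0175, edgeR). Rrm1 had 36.7 CPM with the drug, inside the vehicle range, and Mcm2, Mcm4 and Pcna had log2 fold changes of 0.01, -0.02 and -0.10.

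Among other cell cycle genes, the G1 cyclin Ccnd1 fell by 1.61 on the log2 scale with Nilotinib (adjusted p = 0.00156, edgeR), while E2f3 of the same list of 13 rose by 0.36 (adjusted p = 0.0222, edgeR). Foxm1 fell by 0.67 (adjusted p = 0.0276, edgeR). Of 10 cell cycle inhibitors, Cdkn2b rose (log2 fold change 1.1704) and Cdkn2c (-0.59) and Cdkn2d (-0.70) fell. Of 25 other mitosis genes 3 fell (Racgap1, Cenpe and Mad2l1), and of 25 other replication genes 1 fell (Lig1). Beside 6.02% of all genes called lower, 1 call in a list does not set that list apart.

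Markers of oligodendrocyte precursors, a dividing cell of the postnatal cortex that depends on PDGF receptor alpha, moved with these genes. Of 6 such markers 3 fell with Nilotinib: Pdgfra (log2 fold change -1.82, adjusted p = 0.00599, edgeR), Cspg4 (-2.36) and Olig2 (-0.92). The 6 together had 258 CPM with the drug, against 479 to 627 CPM in vehicles. Of 7 neuron markers 3 fell (Syt1, Tubb3 and Snap25), and the list summed to 3794 CPM with the drug, against 4517 to 6125 CPM in vehicles. Neural progenitor markers summed to 810 CPM with the drug, against 435 to 745 CPM in vehicles, although 1 of the 7, Hes5, fell (log2 fold change -2.87). Astrocyte markers summed to 6945 CPM with the drug, within the vehicle range, and 1 of 8, Fgfr3, fell (log2 fold change -0.65). With 6.02% of all genes called lower, the single calls of Hes5 and Fgfr3 do not set their lists apart. Their part in the result was not tested. The library shares its run code of 32 libraries with 1 vehicle. Against the other libraries of that run code 24 members fell (7.05% of all genes called lower), with limma and run code 21 (12.7% of all genes) and with DESeq2 25 (13.4% of all genes). The 13 called genes were among those called by each of these. Leaving out single vehicles gave 9 to 21 calls, with 21 without Vehicle 3.

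Luteolin, a flavone, had the lowest replication genes of the screen. All 10 replication genes lay below every vehicle, and 7 of them (Pcna, Rrm1, Mcm2, Mcm3, Mcm4, Mcm6 and Mcm7) were lower than with any other drug. Of the mitosis genes 22 of 28 lay below every vehicle. Here too the share of all genes below every vehicle is not given, so these counts have no all-gene background. In edgeR 0 members were called, beside 0.026% of all genes called lower, and 9 of 10 replication genes and 10 of 28 mitosis genes had an unadjusted p under 0.05, beside 1990 of 15398 genes. Medians of log2 fold change were -0.57 for replication genes and -0.52 for mitosis genes.

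Rrm1 had 27.1 CPM with Luteolin, against 32.7, 38.3 and 44.4 CPM in vehicles. Mcm4 had 16.1 CPM with the drug, against 19.9, 22.4 and 24.9 CPM in vehicles, with a log2 fold change of -0.42 ± 0.0961 and an adjusted p of 0.152 (edgeR), the lowest adjusted p of the members. Pcna had 15.7 CPM with the drug, against 16.1, 20.4 and 22.5 CPM in vehicles, just outside their range. DESeq2 called 6 members lower (1.1% of all genes), 4 of them replication genes, and limma with run code called 8 (5.5% of all genes), 6 of them replication genes. Oligodendrocyte precursor markers summed to 398 CPM with Luteolin, against 479 to 627 CPM in vehicles, neural progenitor markers to 364 CPM, against 435 to 745 CPM, and astrocyte markers to 5152 CPM, against 5653 to 7856 CPM. Their part in the result was not tested. Its run code has 20 libraries and no vehicle, so here too the run cannot be told apart from the drug against vehicles.

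With Fenofibrate, a PPAR-alpha agonist used to lower blood lipids, 3 replication genes rose. Mcm2 had 32.7 CPM with it, against 13.5, 17.6 and 20.4 CPM in vehicles, the highest value of the screen. Its log2 fold change was 0.85 ± 0.146 (adjusted p = 0.00533, edgeR). Mcm4 had 30.2 CPM with the drug, against 19.9, 22.4 and 24.9 CPM in vehicles (log2 fold change 0.41 ± 0.0882, adjusted p = 0.0147, edgeR). Pcna had 27.4 CPM with the drug, against 16.1, 20.4 and 22.5 CPM in vehicles (log2 fold change 0.41 ± 0.113, adjusted p = 0.0422, edgeR). All of them lay above every vehicle, and over all genes 5.82% were called higher.

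The other members were mixed with Fenofibrate. The median log2 fold change was 0.31 for replication genes and 0.23 for mitosis genes, and 7 of 10 replication genes and 15 of 28 mitosis genes lay above every vehicle, while edgeR called 0 mitosis genes. At an unadjusted p under 0.05, 2 mitosis and 3 replication genes passed, beside 4007 of 15525 genes. The largest log2 fold change of a mitosis gene was 0.69 ± 0.215 for Ube2c (adjusted p = 0.0651, edgeR). DESeq2 called 4 members higher, the same 3 replication genes and Ube2c (adjusted p = 0.0295, DESeq2), beside 7.56% of all genes. With limma and run code 5 members rose, Mcm3 and Rrm1 in addition, beside 15.1% of all genes. Of 25 other replication genes 5 rose: Chaf1b, a chromatin assembly subunit (log2 fold change 2.459), Cdt1, a helicase loader (2.22), Orc1 (1.03), Rfc3 (0.70) and Pold1 (0.64). Of 25 other mitosis genes 2 rose, Pttg1 (log2 fold change 0.73) and Racgap1 (0.48), beside 5.82% of all genes called higher. Foxm1 rose by 0.61 on the log2 scale, and of the 13 genes of the G1 list Ccnd3, a G1 cyclin, rose (log2 fold change 0.63) and E2f3 fell by 0.56.

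Cell type markers lay outside the vehicle range with Fenofibrate in several lists. Mural cell markers summed to 17.25 CPM with the drug, just below the vehicles at 17.64 to 49.36 CPM. Astrocyte markers summed to 8436 CPM with the drug, against 5653 to 7856 CPM in vehicles, with Aldh1l1 called higher (log2 fold change 0.57) and Fgfr3 (-0.84) and Sox9 (-0.99) called lower among 8 of them. Oligodendrocyte precursor markers summed to 663 CPM with the drug, against 479 to 627 CPM in vehicles, with 0 of 6 called. Neuron markers summed to 4087 CPM with the drug, against 4517 to 6125 CPM in vehicles, and of 7 markers Syt1 (log2 fold change -0.61) and Tubb3 (-0.74) fell. Neural progenitor markers summed to 432 CPM with the drug, against 435 to 745 CPM in vehicles, and of 7 markers the Notch target Hes5 fell (log2 fold change -2.90). Their part in the result was not tested.

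Drugs were also ranked by the median log2 CPM of each set after the mean of each run code was subtracted, so that libraries are compared within their run code. For mitosis genes the lowest were Mitoxantrone·HCl (-0.98), Hydroxyurea (-0.91) and Nilotinib (-0.61), and the vehicles ran from -0.13 to 0.20. The highest were Vigabatrin (0.52), an inhibitor of GABA transaminase, Genistein (0.43), an isoflavone, and Fluvoxamine Maleate (0.37), a serotonin reuptake inhibitor. For replication genes the lowest were Luteolin (-0.52), the flavone Apigenin (-0.38) and the antibiotic Doxycycline Monohydrate (-0.38), and the highest were Fenofibrate (0.37), the calcineurin inhibitor Tacrolimus (0.27) and Clofibrate (0.26), beside vehicles of -0.33 to 0.16.

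**Figure D4:**
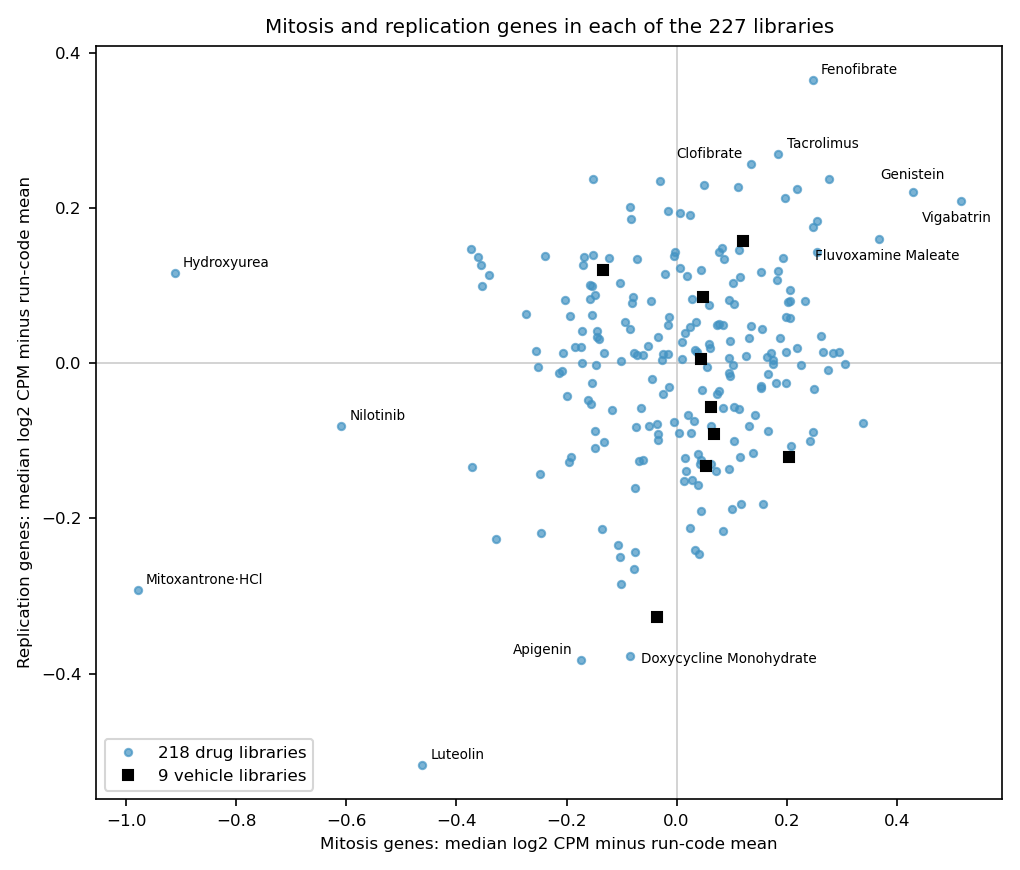
Median of run-centred log2 CPM over the 28 mitosis genes (horizontal axis) and over the 10 replication genes (vertical axis), 1 point per library, with the 218 drugs as circles and the 9 vehicles as black squares. Mitoxantrone·HCl (-0.98) and Hydroxyurea (-0.91) lie lowest for mitosis genes, and Luteolin (-0.52) lowest for replication genes.

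Of these 6 high drugs, the 5 other than Fenofibrate had 0 members called by edgeR. Counts above every vehicle have no all-gene background for them. With Vigabatrin 26 of 28 mitosis genes lay above every vehicle and 11 were the highest of the screen, and 21 had an unadjusted p under 0.05, beside 988 of 15424 genes. Kif23, a kinesin of the midbody, had 7.17 CPM with Vigabatrin, against 3.44, 3.96 and 4.80 CPM in vehicles, with a log2 fold change of 0.80 and an adjusted p of 0.31 (edgeR). DESeq2 called 2 members higher with Vigabatrin, Kif23 and Bub1b, beside 0.444% of all genes. Oligodendrocyte precursor markers summed to 646 CPM with Vigabatrin, against 479 to 627 CPM in vehicles, and their part in the result was not tested. With Genistein 27 of 28 mitosis genes lay above every vehicle, 19 had an unadjusted p under 0.05 beside 321 of 15395 genes, and Top2a reached 54.7 CPM, against 28.2, 39.9 and 41.5 CPM in vehicles. With Clofibrate all 28 mitosis genes and 8 of 10 replication genes lay above every vehicle, in a run code that holds no vehicle. There the median summed level of mitosis genes was 279 CPM over 16 libraries, above the highest vehicle at 250.3 CPM.

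Mebendazole, which binds tubulin, Everolimus, which inhibits mTOR complex 1, and Isotretinoin, a retinoid, were followed because of what they are known to do to growing cells. Each had 0 members called in edgeR, beside 0% of all genes called with Mebendazole, 0% with Everolimus and 0.00649% with Isotretinoin. With Everolimus 18 of 28 mitosis genes lay below every vehicle, the median log2 fold change of mitosis genes was -0.50, and 13 of them had an unadjusted p under 0.05, beside 531 of 15416 genes. The largest with Everolimus were Ccnb1 at -0.94, Ndc80 at -0.78 and Mcm5 at -0.70. With Mebendazole 6 of 10 replication genes and 7 of 28 mitosis genes lay below every vehicle, and the largest log2 fold changes were -0.76 for Tyms, -0.71 for Mcm5 and -0.48 for Rrm2. With Isotretinoin 6 of 10 replication genes lay above every vehicle, the largest being Mcm7 at a log2 fold change of 0.50 with an adjusted p of 0.55 (edgeR). At an unadjusted p under 0.05, 0 replication and 0 mitosis genes passed with Isotretinoin, beside 1086 of 15406 genes. With Mebendazole 4 replication and 0 mitosis genes passed. The count over all genes is not given here for Mebendazole, so these 4 are not read as a result about the members. DESeq2 and limma called 0 members with any of the 3 drugs. Mebendazole and Everolimus come from run codes without a vehicle. For all 3 drugs, counts outside the vehicle range have no all-gene background. With Isotretinoin, neural progenitor markers summed to 868 CPM, against 435 to 745 CPM in vehicles, and astrocyte markers to 8215 CPM, against 5653 to 7856 CPM. Neuron markers summed to 4411 CPM with Isotretinoin, against 4517 to 6125 CPM in vehicles, and oligodendrocyte precursor markers to 461 CPM, against 479 to 627 CPM. With Mebendazole the precursor markers summed to 456 CPM, below the same vehicle range, and with Everolimus the astrocyte markers summed to 7894 CPM, above theirs. The part of these markers was not tested.

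Drugs of a class were pooled as replicates, 2 to 6 drugs per class, and compared with the 9 vehicles in 7 classes, and 0 members were called in any of them by edgeR. The share of all genes called was 3.86% for benzodiazepines, 1.3% for thyroid hormones, 0.0134% for glucocorticoids and 0% each for fibrates, flavonoids, nucleoside antivirals and statins. Fibrates had the highest medians, at log2 fold changes of 0.20 for mitosis genes and 0.18 for replication genes, and 7 mitosis and 4 replication genes had an unadjusted p under 0.05, beside 1793 of 14808 genes. In the other classes 0 to 2 mitosis genes and 0 to 1 replication genes did, among 38 members. With thyroid hormones 3193 of 15059 genes and with benzodiazepines 2989 of 14735 genes passed the same threshold, larger shares than among the members. In the remaining classes between 77 of 15136 genes (statins) and 1166 of 14604 genes (flavonoids) passed it. DESeq2 called 1 member with fibrates, and limma with run code called 3 with fibrates and 1 with flavonoids. Mcm2 had a log2 fold change of 0.41 ± 0.120 with fibrates (n = 5 libraries), with an adjusted p of 0.293 (edgeR). Bezafibrate, Clofibrate and Ciprofibrate come from a run code without a vehicle, where the median summed level of mitosis genes was 279 CPM. With a term for run code (limma), log2 fold changes with fibrates went from 0.346 to 0.175 for Prc1 and from 0.338 to 0.101 for Bub1b. Mcm2 stayed at 0.405. The part of run code in the fibrate medians was not tested. Statins had medians of -0.15 for mitosis genes and -0.10 for replication genes, with Ndc80 at -0.37, and Ndc80 lay at -0.55 without the Lovastatin library and at -0.21 without the Simvastatin library, so 1 library decides its size. Thyroid hormones had a median of -0.14 for mitosis genes, with Aurkb at -0.43 and an adjusted p of 0.173 (edgeR). Glucocorticoids, nucleoside antivirals, flavonoids and benzodiazepines had medians between -0.10 and 0.10 in both sets. A class pools different drugs, so its median can hide drugs that differ. Among flavonoids, the run-centred median log2 CPM of mitosis genes was -0.46 with Luteolin and 0.43 with Genistein. That of replication genes was -0.52 with Luteolin and 0.22 with Genistein.

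The members of each set varied together across the screen. Over all libraries, 218 with drug and 9 with vehicle, the mean Pearson r of log2 CPM between pairs of mitosis genes was 0.745, and between pairs of replication genes 0.649, while between a mitosis and a replication gene it was 0.181. Over pairs of all 13833 genes with a mean of at least 0.5 CPM it was 0.0445. The points share run codes and depth, and after the mean of each run code was removed the values were 0.6997 within mitosis, 0.595 within replication and 0.161 between. Run code accounted for a median of 26.5% of the variance of mitosis genes, 29.6% of replication genes and 24.1% of all genes. These r are descriptions without a test.

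**Figure D5:**
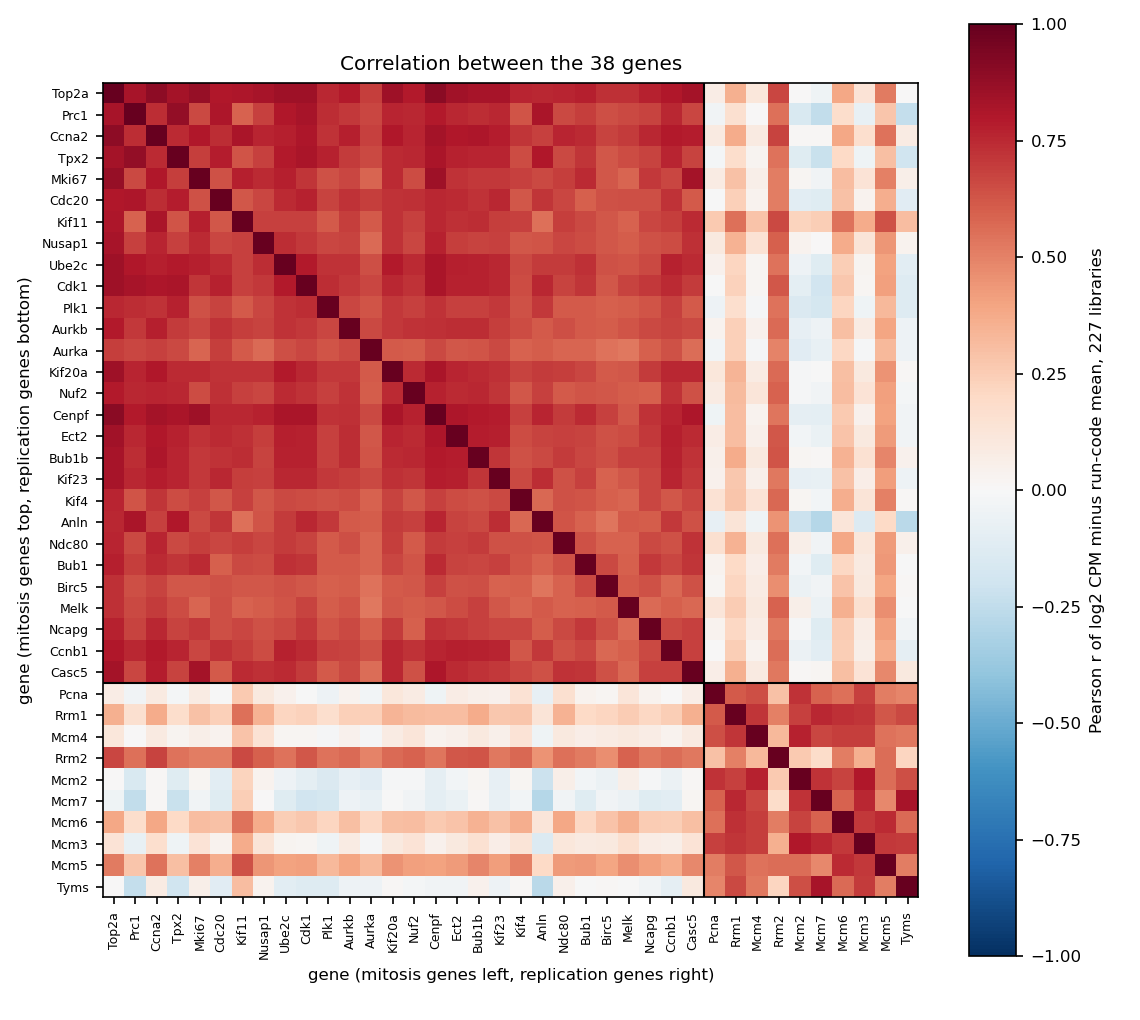
Pearson r of run-centred log2 CPM between the 38 genes over all libraries, from blue (negative) to red (positive), with mitosis genes top left and replication genes bottom right. The mean r is 0.6997 among mitosis genes, 0.595 among replication genes and 0.161 between the sets, and Rrm2 stands with the mitosis genes.

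Single genes differed in how closely they followed their set. Top2a followed the mean of the other mitosis genes with an r of 0.959 after run centring, and Cenpf and Ccna2 each with 0.911. Melk and Birc5, at 0.733 each, followed least. Rrm2 had an r of 0.411 with the other replication genes and of 0.663 with the mitosis genes, the only replication gene higher with the other set. Mcm5 had 0.717 with its own set and 0.492 with mitosis genes. Rrm2 and Mcm5 are the replication genes that fell with Nilotinib. Their promoters, printed above, both hold CCAAT and TTTAAA, with TTTAAA beginning at -221 from the start in Mcm5 and at 1 in Rrm2. The Mcm5 promoter holds an E2F run as well, TTTGGCGC at -149. The promoter of Mcm2 also holds CCAAT and a CHR run, TTTGAA. Mcm2 had a log2 fold change of 0.01 with Nilotinib and an r of -0.046 with the mitosis genes. The part of promoter letters in these values was not tested.

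Of 8 pairs of members, chosen after their values were seen and described without a test, 6 are given over all libraries, drug and vehicle: 4 are subunits or partners of 1 complex and 2 join a mitosis and a replication gene. Cdk1 and Ccnb1, kinase and cyclin, had a Pearson r of 0.801 and a Spearman rho of 0.773, and an r of 0.786 without the 2 libraries farthest from the median and of 0.744 after run centring. Ndc80 and Nuf2, subunits of 1 complex, had an r of 0.628 and a rho of 0.549, and an r of 0.554 and 0.616 in the same checks. Rrm1 and Rrm2, subunits of 1 enzyme, had an r of 0.548 and a rho of 0.502, and 0.499 and 0.504 in the checks. Rrm2 with Top2a, from different sets, had an r of 0.751 and a rho of 0.683, and 0.731 and 0.670 in the checks. Mcm2 and Mcm6, subunits of the helicase, had an r of 0.732 (rho 0.722), with 0.720 and 0.674 in the checks. Mki67 and Mcm2, from different sets, had an r of 0.110 and a rho of 0.0411, and 0.0799 and 0.0210 in the checks. The points share run codes and depth.

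Cell type markers went with the sets in different ways. With the summed level of each marker list, run-centred over all libraries, the mean of the replication genes had an r of 0.664 for neural progenitor markers, 0.620 for astrocyte markers and -0.515 for neuron markers. The mean of the mitosis genes had an r of -0.2503 for progenitor markers, -0.370 for astrocyte markers, 0.439 for neuron markers and 0.381 for oligodendrocyte precursor markers. These lists share libraries and total counts with the members, the values are descriptions with no test, and the part of cell composition was not tested.

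Genes outside the 38 whose pattern was most like each set were named from 12986 genes with a mean of at least 1 CPM. For the mitosis mean they were Aspm (r = 0.895), Ckap2l (0.894), Hmmr (0.866), Cdca8, Cenpe, Racgap1, Pbk, Knstrn, Nek2 and Foxm1 (0.818). For the replication mean they were Cdca7 (r = 0.830), Srsf3 (0.807), Srsf2 (0.797), Cdk4 (0.796), Uhrf1, Pole, Emc8, Adsl, Nmral1 and Srsf1 (0.768). The first list holds known mitosis genes such as Aspm, Hmmr and Racgap1. The second mixes replication genes such as Pole, the catalytic subunit of DNA polymerase epsilon, with splicing factors of the SR family.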

How the data were processed

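RNA was measured in 218 drug libraries and 9 vehicle libraries, grouped by the agent in the labels. The authors deposited a table of counts, whole numbers of reads per gene with no scaling, and a table of RPKM. The RPKM of the authors match count over gene length and library total (largest relative difference 4.88e-06) and were used only to compare levels between genes. Per the submitters' processing notes, edgeR 3.10.5, limma, STAR 2.4.0 and Subread 1.4.6 were used with build mm10, with no step named for each. How strand was treated in counting is not given in the sources used here.

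Members, lists, drugs and classes were chosen with earlier results of these data known. CPM was computed from counts and library totals. Counts were tested in R 4.3.3 with edgeR 4.0.16 (TMM factors, default filter on low counts, quasi-likelihood F test), each drug and each of 7 classes against the 9 vehicles, over all genes, with a Benjamini-Hochberg adjusted p under 0.05. The procedure was tested on simulated data. All 38 members passed the filter in every drug. Alternatives were RLE factors, no filter, DESeq2 1.42.0, limma 3.58.1 over all libraries with run code, a comparison within run code for the named drugs, and leaving out single libraries. Reads that a member shares with a pseudogene could not be separated. For correlations log2 CPM had a prior count of 2.

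The rule for names took all 38 members, the members called and the 3 largest log2 fold changes in each of 6 drugs picked by name (Mitoxantrone·HCl, Hydroxyurea, Mebendazole, Everolimus, Nilotinib and Isotretinoin) and in each class, every other drug with a call, the 3 highest and 3 lowest drugs per set, called genes of the comparison lists, and 10 neighbours per set. Values of Luteolin, Fenofibrate, Vigabatrin, Genistein and Clofibrate beyond their calls or ranks were chosen after they were seen. RefSeq promoters (GRCm38.p6) were searched on both strands.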

Additional observations from a re-analysis of the deposited data

Results flagged for a closer look

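In groups of 4 to 10 libraries, a value was noted when its gap to the nearest other library was large for the range of its group. Of 50 such groups tested 7 were noted, and chance notes about 1 in 20. The groups share libraries and the members vary together, so 7 of 50 cannot be set against that rate. Vehicle 3 had the lowest vehicle level of 20 of the 28 mitosis genes, and for 5 of them the gap was large: Top2a at 28.2 CPM (other vehicles 36.7 to 41.5), Aurkb at 2.52 CPM (3.22 to 3.932), Kif20a at 3.751 CPM (5.25 to 6.67), Cenpf at 10.5 CPM (14.4 to 17.8) and Ect2 at 4.111 CPM (5.54 to 6.35). Vehicle 7 had the lowest Pcna, at 16.1 CPM (other vehicles 19.3 to 22.5). Within the 5 fibrates, Prc1 was lowest with 1 drug, at 10.7 CPM (others 15.8 to 17.8).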

How the results depend on the processing

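No direction of a named result changed under any alternative run. Members called across the 218 drugs numbered 30 in edgeR, 78 with DESeq2 (in 10 drugs), 85 with limma and run code (in 7 drugs), 30 with RLE factors and 27 without a filter, and 20 to 41 when single vehicles were left out. For Mitoxantrone·HCl (14) the counts were 30 with DESeq2, 27 with limma and 9 to 17 without single vehicles, and the 14 called genes were among those called by DESeq2 and limma. For Nilotinib (13) they were 25 with DESeq2, 21 with limma, 24 within its run code and 9 to 21 without single vehicles. For Hydroxyurea (0) they were 7 with DESeq2, 19 with limma and 2 within its run code, and 0 without any single vehicle. For Fenofibrate (3) DESeq2 gave 4, 1 of them the mitosis gene Ube2c, limma gave 5, and leaving out single vehicles gave 2 to 3. Fibrates (0) had 1 member with DESeq2 and 3 with limma, and flavonoids (0) had 1 with limma. The cause of these differences between tools was not tested. Drugs with 0 members in edgeR had calls elsewhere: Ursodiol 4 and Aminophylline 1 with limma, Vigabatrin 2 with DESeq2, and Dexamethasone, Ciprofibrate, Clofibrate and Formoterol 1 each with DESeq2. The mean r among mitosis genes was 0.673 after run centring without the Mitoxantrone·HCl library, a check chosen after seeing the data. Of the named results, 219 stayed the same and 18 moved. Of the other values, 1098 kept direction and side of the threshold, 47 lost their call, 9 gained one and 6 moved.

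No paired analysis was possible because each drug has 1 library and shares no replicate number with a particular vehicle. With 1 library per drug, its error is taken from the vehicles, and low genes such as Ccnb1 rest on few reads. Drug doses, and whether vehicles were separate cultures, are not given in the sources used here. Run codes without a vehicle leave drug and run code apart only in comparisons within a run code.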

Other observations

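The summed level of the 28 mitosis genes differed by run code, with medians from 202 CPM over the 8 libraries that ran with Mitoxantrone·HCl to 279 CPM over the 16 that ran with Clofibrate, both without a vehicle. Summed replication genes had run-code medians from 153 CPM in the run code of Mitoxantrone·HCl to 191 CPM in that of Isotretinoin.

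Other drugs held the highest level of single members. Diflunisal, a salicylate, had the highest Mki67 of the 218 drugs, at 43.8 CPM, against 24.6 to 37.9 CPM in vehicles, and also the highest Kif11, Plk1 and Kif4. Levetiracetam, an antiepileptic drug that binds SV2A, had the highest Nusap1, at 10.9 CPM, against 7.22 to 9.19 CPM in vehicles, and the highest Aurkb and Ncapg. Formoterol, a beta-2 adrenergic agonist, had the highest Rrm1, at 49.3 CPM, against 32.7 to 44.4 CPM in vehicles. None of these was called by edgeR, and the drugs were chosen after their values were seen.

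Among the 9 vehicles alone, the mean r was 0.521 within mitosis genes, 0.536 within replication genes and -0.281 between the sets, on 9 points without a test.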
